A study of Mus musculus with 6 samples.

Results

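The proteasome genes described here are 47 genes for subunits, activators, an inhibitor and assembly factors of the proteasome, chosen by symbol from the 22298 entries of a gene table of the newborn mouse lens. They comprise 7 genes of the alpha ring, 7 of the beta ring, 3 of the immunoproteasome, 6 of the ATPase ring, 11 of the non-ATPase base and lid, 3 base assembly chaperones, 5 activators and inhibitor, and 5 factors of 20S assembly. Lenses of Fyco1-/- mice were set against lenses of wild-type (WT) mice, all labelled as strain C57BL/6 and taken at postnatal day 0. Each genotype had 3 libraries, A, B and C, each a biological replicate of 10 whole lenses pooled before RNA was extracted. The Fyco1 protein couples autophagosomes to motors that run along microtubules. How the allele was made, the sex of the mice and the number of litters are not given in the sources used here.

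The proteasome is the cell's main protease for proteins tagged with ubiquitin. Its 20S core stacks alpha rings, which gate the entry, around beta rings, which hold the cutting sites, and a 19S particle unfolds tagged proteins with an ATPase ring and trims off their ubiquitin. Cells build the core with dedicated chaperones, and interferon replaces the cutting subunits with those of the immunoproteasome. In the lens, ubiquitin-dependent breakdown has been linked to the differentiation of fibre cells, which lose their organelles as they fill with crystallins.

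All values are FPKM, fragments per kilobase of gene, scaled per the labels to mapped reads. Levels of different genes also depend on the gene lengths used, and the annotation behind these is not given in the sources used here. The libraries were estimated at 16.9 to 19.9 M reads, at which 1 read in a gene of 1 kilobase is 0.0502 to 0.059 FPKM. Fyco1 itself had 4.61, 4.59 and 4.87 FPKM in Fyco1-/- libraries A, B and C, against 5.40, 5.21 and 5.11 FPKM in WT libraries A, B and C. Its level was lower in all 3 Fyco1-/- libraries but was not called (log2 difference -0.15, limma adjusted p = 0.273), and which exons the allele removes is not given in the sources used here. Lens markers were abundant, with Cryaa at 117880 to 122150 FPKM in Fyco1-/- and 114750 to 119180 FPKM in WT. Of 10 lens epithelium markers 5 fell in Fyco1-/- (Pax6, Itga6, Sfrp1, Slc38a2 and Vim) and Cryab rose, while among the fibre markers Crygs fell and Cryab and Hsf4 rose. In whole lenses, fewer cells of a type and less RNA per cell cannot be told apart. No tested marker of macrophages (7 of 13), endothelium (9 of 9), pericytes (7 of 9), red cells (5 of 6), retina (1 of 7) or cornea (1 of 4) was called, and at an unadjusted p under 0.05, 1 endothelial, 2 pericyte and 1 retinal marker were lower and 0 were higher. The summed level of the macrophage markers was 4.80 to 6.67 FPKM in Fyco1-/- and 4.75 to 34.4 FPKM in WT, the highest being WT library B through Lyz2 at 23.1 FPKM. The part of these markers in the proteasome values was not tested.

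Pomp, Psmg2, Psmc1 and Psmb1 rose in Fyco1-/- lenses, and no proteasome gene fell. Differences were tested with limma on log2(FPKM + 0.5) over all 12001 genes with a mean of at least 0.5 FPKM, and calls were made under an adjusted p (Benjamini-Hochberg) of 0.05. Of the 47 genes 45 were tested, since Psmb8 and Psmb9 lay under that level. The 4 calls stand against a background of 8.43% of all tested genes called, 3.42% higher and 5.02% lower. At an unadjusted p under 0.05, 18 proteasome genes were higher, where 9.32% of tested genes were, and 1 was lower, where 15.1% were. The log2 difference was above 0 for 38 of 45 proteasome genes, against 40.1% of all tested genes. All 3 Fyco1-/- values lay above all 3 WT values for 19 proteasome genes, against 11.1% of all tested genes, and below them for 1, against 18.6%. The median log2 difference was 0.11 over the 45 proteasome genes and -0.04 over all tested genes. The differences were small: the median of the 31 constitutive ring, base and lid genes corresponds to a 1.08-fold higher level in Fyco1-/-. Scaling bears on the counts. With median-of-ratios scaling 11 proteasome genes were called, all higher, where 5.22% of tested genes were called higher, and higher genes made up 56.5% of all calls in place of 40.5%. The added calls were Psma5, Psmb2, Psmb3, Psmc3, Psmc5, Psmd3 and Psmd10.

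**Figure D1:**
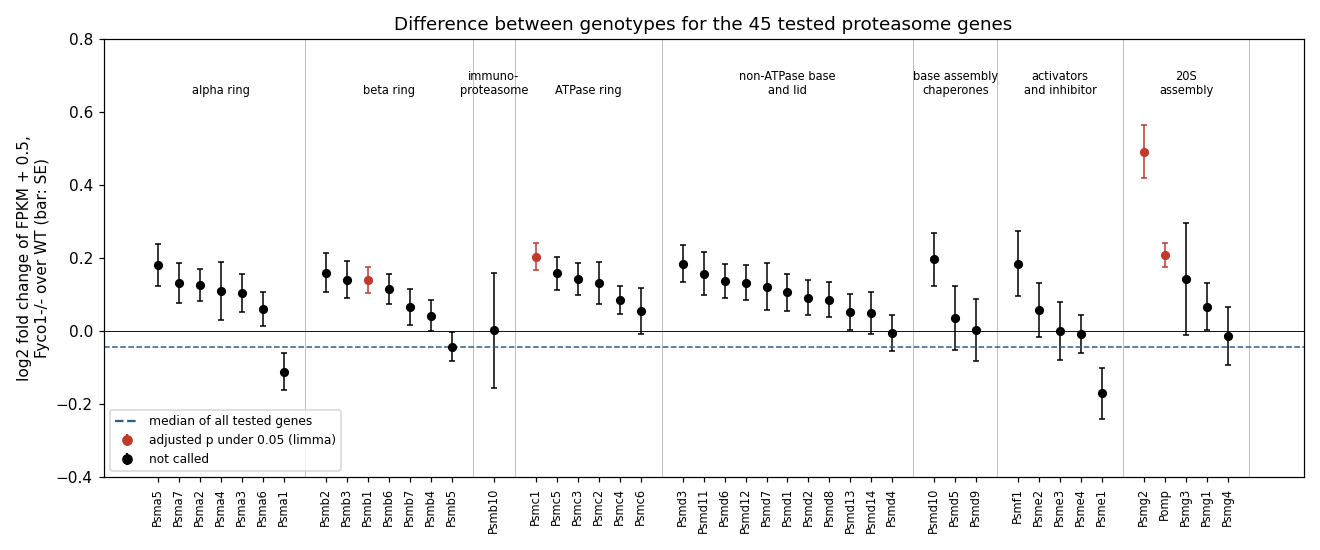
Log2 differences of FPKM + 0.5, Fyco1-/- over WT, for the 45 tested proteasome genes by subcomplex. Points are limma estimates with their standard error, red points are called, and the dashed line is the median of all tested genes at -0.04, under which only Psma1, Psmb5 and Psme1 lie.

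Among the factors that build the 20S core, Pomp and Psmg2 rose. Pomp, the maturation protein that carries the forming beta ring and is then degraded by the new core, lies on chromosome 5 at 147860461 to 147876456 (GRCm38). It had 182, 180.5 and 183 FPKM in Fyco1-/- libraries A, B and C, against 159, 154 and 158 FPKM in WT libraries A, B and C. The groups did not overlap, and the log2 difference was 0.21 (SE 0.03, limma adjusted p = 0.0037). Its call held under all 16 alternative settings, with adjusted p of 0.0029 to 0.0180.

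Psmg2, which pairs with Psmg1 as a chaperone of the alpha ring, lies on chromosome 18 at 67641599 to 67654162 (GRCm38). It had 18.9, 18.3 and 16.0 FPKM in Fyco1-/- libraries A, B and C, against 12.4, 11.9 and 13.0 FPKM in WT libraries A, B and C. Its lowest Fyco1-/- value lay above its highest WT value, and the log2 difference of 0.49 (SE 0.07, limma adjusted p = 0.0026) was the largest of the 45 tested proteasome genes. Its partner Psmg1 had 21.1, 19.3 and 21.1 FPKM in Fyco1-/- libraries, against 19.5, 18.5 and 20.7 FPKM in WT libraries, which overlap (log2 difference 0.07, limma adjusted p = 0.570). The difference between the partners was not tested. The other chaperone pair of the alpha ring is Psmg3 and Psmg4. Psmg4 had 18.4, 17.3 and 15.0 FPKM in Fyco1-/- libraries, against 17.3, 17.9 and 15.9 FPKM in WT libraries (log2 difference -0.01, limma adjusted p = 0.938). Psmg3 sat near the test's level, with 0.751, 0.704 and 0.504 FPKM in Fyco1-/- libraries and 0.560, 0.560 and 0.502 FPKM in WT libraries, and was not called (limma adjusted p = 0.625).

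The gene beside Psmg2 also rose. Cep76, which encodes a centrosomal protein, is read in the opposite direction from a start 263 bases away and is named here after its values were seen. It had 2.05, 2.30 and 1.72 FPKM in Fyco1-/- libraries A, B and C, against 1.16, 1.18 and 1.08 FPKM in WT libraries A, B and C. The groups did not overlap (log2 difference 0.62, limma adjusted p = 0.0139), and without Fyco1-/- library B the adjusted p was 0.0601. Of the 10 proteasome genes with such a divergent neighbour within 1000 bases in the table, Psmg2 was the one whose neighbour was called. The neighbour of Psma5, 1700010K24Rik, was too low to be tested. Over all tested genes 8.43% were called. Tbp, beside Psmb1, was not called (log2 difference -0.07, limma adjusted p = 0.824).

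**Figure D2:**
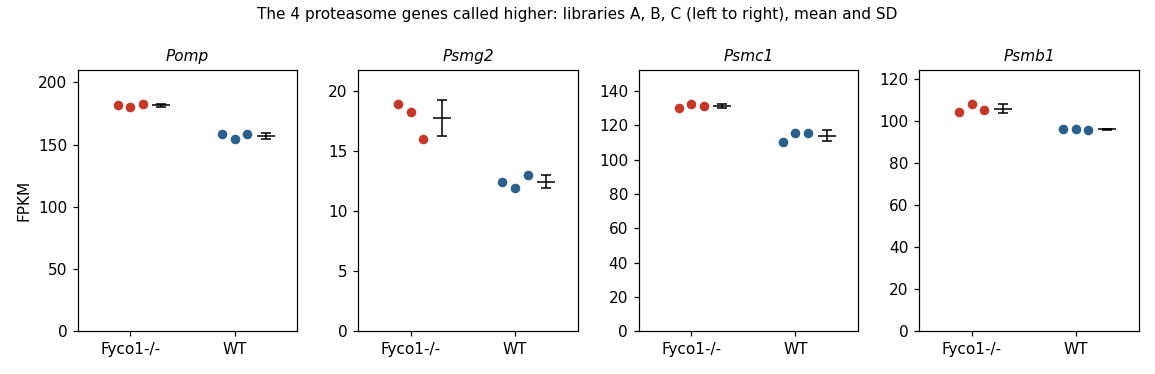
FPKM of the 4 proteasome genes called higher, one panel each, with Fyco1-/- libraries in red and WT libraries in blue. Points are libraries A, B and C, and the black bar is the mean with its SD of 3 libraries. In each panel every Fyco1-/- point lies above every WT point.

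In the ATPase ring, which unfolds the substrate, Psmc1 rose and all 6 genes had log2 differences above 0, with a median of 0.14. Psmc1 lies on chromosome 12 at 100110154 to 100123405 (GRCm38). It had 130.2, 132.5 and 131 FPKM in Fyco1-/- libraries A, B and C, against 110.4, 116 and 116 FPKM in WT libraries A, B and C. The groups stood well apart (log2 difference 0.20, SE 0.04, limma adjusted p = 0.0078), and the call held under all 16 alternative settings. Psmc5, the most abundant ATPase gene, had 186, 201 and 179 FPKM in Fyco1-/- libraries, against 165, 171 and 169 FPKM in WT libraries. Its groups did not overlap either, but it missed the threshold (log2 difference 0.16, limma adjusted p = 0.0621). Psmc6 had the smallest difference, with 36.1, 41.7 and 40.8 FPKM in Fyco1-/- libraries and 39.8, 36.3 and 38.0 FPKM in WT libraries, which overlap (log2 difference 0.05, limma adjusted p = 0.655). The log2 difference was 0.13 for Psmc2, 0.14 for Psmc3 and 0.09 for Psmc4, none of them called.

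The promoters of Pomp and Psmc1, the called genes whose sequences could be shown, both hold the core motif of ETS factors, CCGGAAG or its reverse complement CTTCCGG. They are shown here for that shared motif, as the 250 bases before the RefSeq start (GRCm38.p6), read 5′ to 3′ on the gene's strand, with motif matches in capitals. The Pomp window is chr5:147860378-147860627 on the plus strand, with the motif in both directions at positions -62 and -49 from the start. The Psmc1 window is chr12:100109952-100110201 on the plus strand, with CTTCCGG at -28 and a CCAAT box at -175. In both cases the GENCODE gene model begins within the window.

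Pomp: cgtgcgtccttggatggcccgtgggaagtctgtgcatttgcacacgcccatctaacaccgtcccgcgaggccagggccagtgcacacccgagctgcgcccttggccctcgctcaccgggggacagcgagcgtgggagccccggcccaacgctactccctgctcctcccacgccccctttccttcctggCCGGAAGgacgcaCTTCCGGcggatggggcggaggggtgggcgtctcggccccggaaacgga
Psmc1: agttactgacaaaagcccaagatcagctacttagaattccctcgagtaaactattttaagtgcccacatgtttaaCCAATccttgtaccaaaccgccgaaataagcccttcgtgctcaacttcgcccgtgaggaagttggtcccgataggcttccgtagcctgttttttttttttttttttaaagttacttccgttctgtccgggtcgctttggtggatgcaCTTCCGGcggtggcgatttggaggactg

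The promoters of Psmb5 and Psmb6, which encode cutting subunits of the core, are shown because each holds TGACNNNGC, the core of the antioxidant response element to which Nfe2l1 and Nfe2l2 bind with Maf proteins. The Psmb5 window is chr14:54617996-54618245 on the minus strand, with the match in capitals at position -47. The Psmb6 window is chr11:70525107-70525356 on the plus strand, with the match in capitals at position -9.

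Psmb5: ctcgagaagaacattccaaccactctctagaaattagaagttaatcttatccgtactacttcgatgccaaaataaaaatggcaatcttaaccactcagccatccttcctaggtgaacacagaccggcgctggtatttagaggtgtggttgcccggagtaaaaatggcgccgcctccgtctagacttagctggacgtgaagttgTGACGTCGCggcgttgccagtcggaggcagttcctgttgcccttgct
Psmb6: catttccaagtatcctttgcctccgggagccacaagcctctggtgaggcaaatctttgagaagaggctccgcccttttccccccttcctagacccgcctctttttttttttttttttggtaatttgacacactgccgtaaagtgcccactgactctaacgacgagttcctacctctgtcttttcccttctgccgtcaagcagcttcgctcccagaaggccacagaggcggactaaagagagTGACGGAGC

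RefSeq promoters of 300 bases, 250 before and 50 after the start, were found for 40 of the 47 proteasome genes and searched on both strands. CCGGAAG stood in 15 of the 40 (37.5%), against 21% of 8672 other tested genes and 9.93% of all 27025 genes with a promoter. Of these 15, Pomp and Psmc1 were called and the rest were not. TGACNNNGC stood in 6 of the 40 (15%), namely Psmb5, Psmb6, Psmc6, Psmd9, Psmd12 and Psme4, against 17.1% of other tested genes and 14% of all genes. None of these 6 was called, where 8.43% of all tested genes were. A link between motifs and calls was not tested. CCAAT stood in 13 of the 40 (32.5%), against 42.9% of other tested genes and 41.1% of all genes. The palindromic motif of nuclear respiratory factor 1 stood in 2 of the 40 (5%), Psma2 and Psmg1, against 2.5% of other tested genes. The share among other tested genes was added after the motif counts had been seen.

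In the beta ring, which holds the cutting sites, Psmb1 rose and 6 of 7 genes had log2 differences above 0, with a median of 0.11. Psmb1, a structural subunit without a cutting site, lies on chromosome 17 at 15475021 to 15499751 (GRCm38). It had 104, 108 and 105 FPKM in Fyco1-/- libraries A, B and C, against 96.3, 96.0 and 95.9 FPKM in WT libraries A, B and C. The WT values differed little among themselves and all lay below the Fyco1-/- values (log2 difference 0.14, SE 0.04, limma adjusted p = 0.0403). This call was the least firm of the 4: it was lost when any single library was left out (adjusted p of 0.0534 to 0.142) and held in 6 of 16 alternative settings.

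The cutting subunits themselves were not called. Psmb5, which cuts after hydrophobic residues and was the most abundant of all 47 genes, had 193, 207 and 201 FPKM in Fyco1-/- libraries A, B and C. In WT libraries A, B and C it had 202, 203 and 214 FPKM, and it was the one beta gene with a log2 difference below 0 (-0.04, limma adjusted p = 0.563). Its groups overlap. Psmb6, which cuts after acidic residues, had 175, 168 and 173 FPKM in Fyco1-/- libraries and 150.5, 164 and 162 FPKM in WT libraries. These groups did not overlap (log2 difference 0.11, limma adjusted p = 0.125). Psmb7, which cuts after basic residues, had 116, 127 and 118 FPKM in Fyco1-/- libraries and 111, 112 and 121 FPKM in WT libraries, which overlap (limma adjusted p = 0.447). The largest beta difference, 0.16 on the log2 scale, was that of the structural subunit Psmb2, with 70.2, 74.0 and 66.8 FPKM in Fyco1-/- libraries and 63.5, 66.0 and 59.4 FPKM in WT libraries. Its groups did not overlap, but the limma adjusted p was 0.0999. Psmb3 and Psmb4, also structural, had log2 differences of 0.14 for Psmb3 and 0.04 for Psmb4.

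In the alpha ring, which gates the core, no gene was called (3 were higher at an unadjusted p under 0.05), and 6 of 7 had log2 differences above 0, with a median of 0.11. Psma6, the most abundant, had 80.7, 86.4 and 76.9 FPKM in Fyco1-/- libraries A, B and C, against 77.9, 79.0 and 76.9 FPKM in WT libraries A, B and C, which overlap. Psma5 had the largest difference, with 48.2, 50.4 and 51.5 FPKM in Fyco1-/- libraries and 46.0, 45.9 and 40.6 FPKM in WT libraries. Its groups did not overlap (log2 difference 0.18, limma adjusted p = 0.0887). Psma1 went the other way, with 36.6, 38.7 and 35.4 FPKM in Fyco1-/- libraries and 40.8, 40.6 and 38.4 FPKM in WT libraries. Fyco1-/- library B overlapped WT library C, and the log2 difference was -0.11 (limma adjusted p = 0.210). The log2 difference was 0.13 for Psma2, 0.10 for Psma3, 0.11 for Psma4 and 0.13 for Psma7.

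Reads of Psma3 could be shared with a copy. Gm13835, a processed pseudogene on chromosome 6, matches the Psma3 transcript at 100% over 665 bases and is named here after its values were seen. It had 5.19, 6.50 and 5.61 FPKM in Fyco1-/- libraries A, B and C, against 0.683, 1.09 and 0.503 FPKM in WT libraries A, B and C. The groups were far apart (log2 difference 2.34, limma adjusted p = 3.82e-05), and the call held under all 16 alternative settings. Psma3 had 28.6, 31.0 and 31.0 FPKM in Fyco1-/- libraries and 28.6, 27.2 and 28.2 FPKM in WT libraries. Psma3 was thus more abundant than the copy in each library, by a much wider margin in WT than in Fyco1-/-. How reads were divided between the copies was not tested, and both values are uncertain. In all, 9 proteasome genes have a transcript of another gene that does not overlap them, with at least 95% identity along 250 bases or more, and for 2 of them, Psma3 and Psme2, the copy averaged at least 0.5 FPKM. Of the called genes Psmc1 is among the 9. Its copy Gm9575, a processed pseudogene, matches it at 97.1% over 728 bases and averaged 0.210 FPKM in Fyco1-/- and 0.0679 FPKM in WT, and another processed pseudogene matches it at 95.6% over 1306 bases and was not analysed here. How reads were divided between Psmc1 and its copies was not tested. Exons of 11 proteasome genes share 50 bases or more with a gene that overlaps them, among them Psmd1, Psmd13 and Psmg3, whose near-identical partner is that overlapping gene. The exons of Pomp, Psmg2, Psmc1 and Psmb1 share no such stretch.

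The non-ATPase base and lid, which bind ubiquitin chains and trim them off, held no called gene (4 were higher at an unadjusted p under 0.05), while 10 of 11 had log2 differences above 0, with a median of 0.11. Psmd6, the most abundant, had 66.7, 72.7 and 71.9 FPKM in Fyco1-/- libraries A, B and C, against 63.3, 65.8 and 63.0 FPKM in WT libraries A, B and C. Its groups did not overlap (log2 difference 0.14, limma adjusted p = 0.102). Psmd3, a scaffold subunit of the lid, had 30.5, 29.0 and 28.4 FPKM in Fyco1-/- libraries and 25.9, 24.9 and 26.3 FPKM in WT libraries. It came closest to the threshold among the genes not called (log2 difference 0.18, limma adjusted p = 0.0523) and was called in 3 of 16 alternative settings. Psmd4, a ubiquitin receptor, had 54.2, 55.4 and 50.6 FPKM in Fyco1-/- libraries and 56.0, 52.5 and 52.3 FPKM in WT libraries, which overlap (log2 difference -0.01, limma adjusted p = 0.964). Psmd14, the lid's deubiquitinase, had 21.5, 22.3 and 23.7 FPKM in Fyco1-/- libraries and 20.8, 22.4 and 22.0 FPKM in WT libraries, which also overlap (log2 difference 0.05, limma adjusted p = 0.661). The large base scaffolds Psmd1 and Psmd2 had log2 differences of 0.11 for Psmd1 and 0.09 for Psmd2. Among the remaining lid genes the log2 difference was 0.12 for Psmd7, 0.09 for Psmd8, 0.16 for Psmd11, 0.13 for Psmd12 and 0.05 for Psmd13.

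The 3 chaperones that guide assembly of the base were not called, and 1 was higher at an unadjusted p under 0.05. Psmd10, also known as gankyrin, had 9.87, 10.2 and 9.64 FPKM in Fyco1-/- libraries A, B and C, against 9.28, 8.36 and 8.11 FPKM in WT libraries A, B and C. Its groups did not overlap (log2 difference 0.20, limma adjusted p = 0.124). Psmd9 had 9.71, 10.8 and 8.51 FPKM in Fyco1-/- libraries and 9.39, 9.74 and 9.72 FPKM in WT libraries, which overlap (limma adjusted p = 0.991). Psmd5 was the remaining one, with a log2 difference of 0.03.

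None of the 5 genes for alternative caps of the core and for its inhibitor was called, and at an unadjusted p under 0.05, 1 was lower. The log2 difference was above 0 for 2 of them, but signs near 0 rest on the scaling: with median-of-ratios scaling 43 of the 45 tested proteasome genes had log2 differences above 0, all but Psma1 and Psme1. Psme1, which with Psme2 forms a cap induced by interferon, had 9.91, 10.6 and 10.8 FPKM in Fyco1-/- libraries A, B and C, against 11.5, 11.3 and 12.7 FPKM in WT libraries A, B and C. It was the one proteasome gene whose 3 Fyco1-/- values all lay below its WT values (log2 difference -0.17, limma adjusted p = 0.166). Its partner Psme2 had 17.8, 17.4 and 18.8 FPKM in Fyco1-/- libraries and 18.4, 15.4 and 18.1 FPKM in WT libraries, which overlap (log2 difference 0.06, limma adjusted p = 0.686). Psme4, the large nuclear cap and the most abundant of the group, had 27.9, 29.9 and 30.4 FPKM in Fyco1-/- libraries and 30.5, 29.0 and 29.1 FPKM in WT libraries. These overlap, as did those of the nuclear cap gene Psme3 at 16.1 to 18.5 FPKM in Fyco1-/- and 16.0 to 19.1 FPKM in WT. Psmf1, the inhibitor, had 5.31, 6.59 and 5.91 FPKM in Fyco1-/- libraries and 5.22, 4.99 and 5.23 FPKM in WT libraries. Its groups did not overlap (log2 difference 0.18, limma adjusted p = 0.239).

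Of the immunoproteasome genes, Psmb8 and Psmb9 were nearly silent in both genotypes. Psmb8, which takes the place of Psmb5, had 0.139, 0.0269 and 0.0828 FPKM in Fyco1-/- libraries A, B and C, against 0.0613, 0.157 and 0.0602 FPKM in WT libraries A, B and C. Psmb9, which takes the place of Psmb6, had 0.0184, 0.0355 and 0.0182 FPKM in Fyco1-/- libraries and 0.122, 0.0345 and 0.0199 FPKM in WT libraries. The values of these genes rest on few reads and overlap between genotypes, and neither gene was tested. Psmb10, which takes the place of Psmb7, was better measured, with 3.93, 4.60 and 3.73 FPKM in Fyco1-/- libraries and 5.48, 3.45 and 3.53 FPKM in WT libraries. The groups overlap (limma adjusted p = 0.997), and Psmb7 was 27.6 to 31.5 times as abundant as Psmb10 in Fyco1-/- and 20.2 to 34.3 times in WT.

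**Figure D3:**
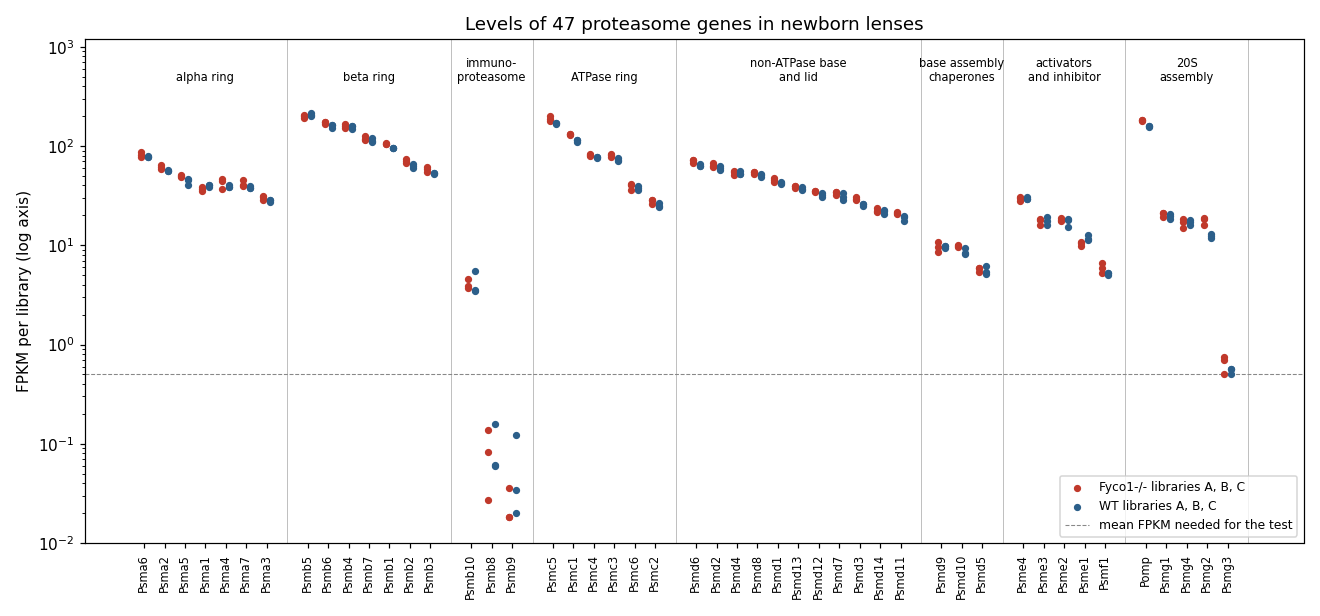
FPKM per library of the 47 proteasome genes on a log axis, grouped by subcomplex and ordered within it by the WT mean, with Fyco1-/- libraries in red left of WT libraries in blue. The dashed line is the mean of 0.5 FPKM needed for the test. WT means of the ring, base and lid genes run from 18.8 to 206 FPKM, while Psmb8 and Psmb9 lie far below the line.

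Levels spanned a wide range within a complex that holds its subunits in equal number. Among the 31 constitutive ring, base and lid genes, mean FPKM ran from 21.0 (Psmd11) to 200.2 (Psmb5) in Fyco1-/- and from 18.8 (Psmd11) to 206 (Psmb5) in WT, a span of 9.55-fold in Fyco1-/- and 11.0-fold in WT. Psmb5, Psmc5, Psmb6 and Psmb4 led the order in both genotypes, and Psmc2, Psmd14 and Psmd11 closed it. Merged exons in GENCODE M21 cover 899 bases for Psmb5 and 6383 bases for Psmd11. The part of the gene lengths used in this span and order was not tested. In WT the order is only partly resolved: of 30 neighbouring pairs, 17 overlap between libraries. The order was nearly the same in Fyco1-/-, where 19 of the 31 genes held their place. The largest move was 4 places, by Psma1, which was 24th in Fyco1-/- and 20th in WT. The assembly factor Pomp, at a mean of 182 FPKM in Fyco1-/- and 157 FPKM in WT, matched the level of the most abundant subunits, whereas the other 4 factors of 20S assembly averaged 0.653 to 20.5 FPKM in Fyco1-/- and 0.541 to 19.6 FPKM in WT.

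The summed level of the 31 constitutive genes showed the same small shift. It was 2214, 2307 and 2221 FPKM in Fyco1-/- libraries A, B and C, against 2073, 2128 and 2110 FPKM in WT libraries A, B and C. The groups did not overlap, and the sum made up 0.292% to 0.307% of all FPKM in Fyco1-/- and 0.279% to 0.285% in WT. Fyco1-/- library B stood out upward, holding the highest of the 6 values for 15 of the 31 genes. The lowest value was most often that of WT library C, for 12 genes, or WT library A, for 10. Without Fyco1-/- library B the median log2 difference of the 45 tested genes was 0.09, and over the libraries left out in turn it was 0.09 to 0.11. Of the 31 constitutive genes 2 were called, both higher, and 28 had log2 differences above 0. Of the other 16 proteasome genes 14 were tested. Among these 14, 2 were called, both higher, and 10 had log2 differences above 0, with a median of 0.05. Over all tested genes 3.42% were called higher and 40.1% had log2 differences above 0.

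The authors' deposited table of fold changes, from DESeq2, gives more calls for the same libraries. There, in the authors' deposited table, a set of 12 proteasome genes have an adjusted p under 0.05 and are higher in Fyco1-/-, where 5.22% of its 13066 genes with an adjusted p are, and 0 are lower, where 4.15% are. In the authors' deposited table these 12 include all 4 genes called by limma, and the others are Psma5, Psmb2, Psmb3, Psmc2, Psmc3, Psmc5, Psmd3 and Psmd6. The median log2 fold change of the 45 tested genes in the authors' deposited table is 0.15, against -0.0002 for all genes tested here. Both counts rest on the same 6 libraries.

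Beyond the proteasome itself, 89 genes of related lists were tested, called pathway genes here. The lists cover ubiquitin, its ligases, delivery factors, proteasome partners, factors that control proteasome genes, and the MHC class I pathway with interferon targets. Of these genes 3 were called, all lower: Ubb, Nfe2l2 and Canx. Nfe2l2 is on the list of control factors and Canx on the MHC class I list. Over all tested genes 8.43% were called and 5.02% were called lower, so these lists held no more calls than the background. At an unadjusted p under 0.05, 11 pathway genes were higher, where 9.32% of all tested genes were, and 9 were lower, where 15.1% were. Ubb, a gene for chains of ubiquitin, had 397, 403 and 403 FPKM in Fyco1-/- libraries A, B and C, against 497, 569 and 526 FPKM in WT libraries A, B and C. The groups were far apart (log2 difference -0.40, limma adjusted p = 0.0005), and the call held under all 16 alternative settings. Rps27a, which encodes ubiquitin fused to a ribosomal protein, overlapped between genotypes, with 386 to 401 FPKM in Fyco1-/- and 397 to 426 FPKM in WT.

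Of the factors that control proteasome genes, Nfe2l2, the NRF2 factor of the oxidative stress response, had 5.55, 5.07 and 4.59 FPKM in Fyco1-/- libraries A, B and C. In WT libraries A, B and C it had 7.33, 6.88 and 6.61 FPKM, all above the Fyco1-/- values (log2 difference -0.42, limma adjusted p = 0.0156). Nfe2l1, the factor that raises proteasome genes when proteasomes are inhibited, had 37.5, 33.5 and 34.7 FPKM in Fyco1-/- libraries, against 38.5, 38.3 and 38.0 FPKM in WT libraries. Its groups did not overlap, but it was not called (log2 difference -0.12, limma adjusted p = 0.186). The median log2 difference of the 16 genes of this list was -0.12. Canx, an endoplasmic reticulum chaperone that helps to fold MHC class I, had 46.0, 46.5 and 47.5 FPKM in Fyco1-/- libraries and 58.4, 56.2 and 51.6 FPKM in WT libraries (log2 difference -0.24, limma adjusted p = 0.0180). Left-out libraries decide these calls in part: that of Nfe2l2 was lost without WT library A, WT library B or Fyco1-/- library C, and that of Canx without WT library A, WT library B or Fyco1-/- library B.

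In the remaining lists no gene was called. At an unadjusted p under 0.05, 3 of 12 further components, 2 of 17 delivery factors and 6 of 27 ligase genes were higher. At the same unadjusted p, 1 further component and 1 delivery factor were lower. Of all tested genes 9.32% were higher and 15.1% lower by that measure. Among further components and interactors, Adrm1, a ubiquitin receptor of the base, had 27.2, 25.9 and 25.1 FPKM in Fyco1-/- libraries A, B and C, against 21.9, 23.2 and 23.5 FPKM in WT libraries A, B and C. Its groups did not overlap (log2 difference 0.18, limma adjusted p = 0.0680). Zfand2a, a stress-induced proteasome partner, had a log2 difference of 0.26 (limma adjusted p = 0.0745). Among 17 delivery factors, which carry tagged proteins to the proteasome, the log2 difference was 0.27 for Faf1 (limma adjusted p = 0.0554) and 0.11 for Ubxn1 (limma adjusted p = 0.112). Among 27 genes of cullin ligases, NEDD8 and ubiquitin-conjugating enzymes it was 0.14 for Cdc34 (limma adjusted p = 0.0897) and 0.12 for Ddb1 (limma adjusted p = 0.0998). With median-of-ratios scaling 10 pathway genes were called, adding Adrm1, Zfand2a, Faf1, Cdc34, Ddb1, Ube2n and Ube2k, all higher.

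**Figure D4:**
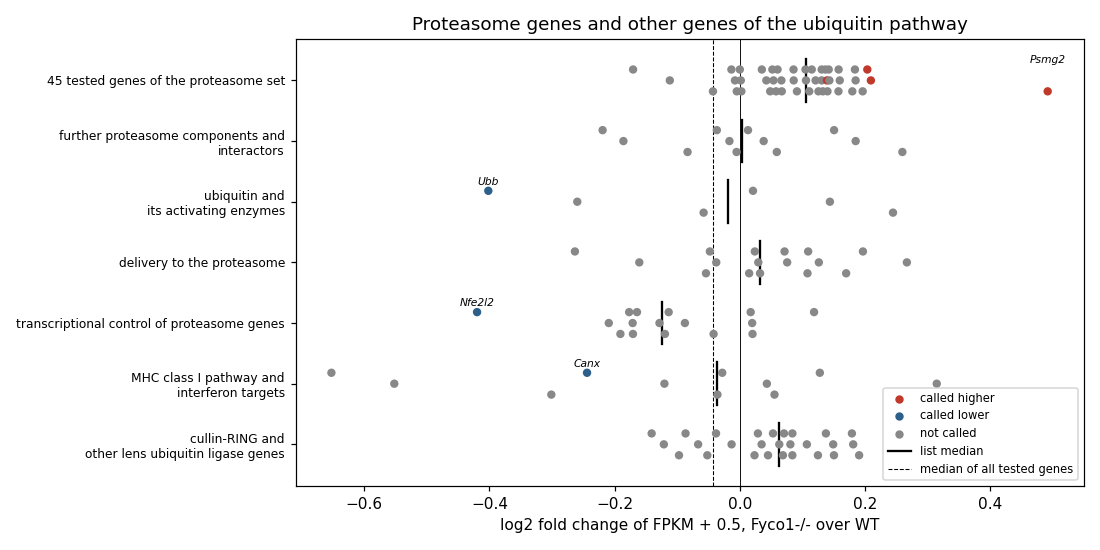
Log2 differences of FPKM + 0.5, Fyco1-/- over WT, of the 45 tested proteasome genes (top row) and of 89 other genes by list. The lists include factors that control proteasome genes and the MHC class I pathway. Red points are called higher, blue points called lower and grey points not called, and the black bar is the list's median, 0.11 in the top row and -0.12 for the factors that control proteasome genes.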

How the data were processed

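RNA of 3 Fyco1-/- and 3 WT pools of 10 lenses was sequenced as paired reads. Per the labels' design text the authors aligned reads to GRCm38 with STAR 2.5, counted them with HTSeq 0.6.1 and deposited FPKM values per library. The annotation, strand setting and total used for scaling are not given in the sources used here. Log2 fold changes, p-values and adjusted p-values from DESeq2 were deposited by the authors too. Depth was estimated from the steps between low FPKM values with GENCODE M21 exon lengths, by which 37.1% to 41.3% of low values lay no more than 0.05 reads away from whole numbers (10% by chance).

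For 12001 genes, log2(FPKM + 0.5) was fitted with limma (version 3.58.1, R version 4.3.3) by genotype, using a trended prior and robust moderation, and two-sided p-values were adjusted after Benjamini-Hochberg over all of them. The steps were run on simulated data with changes larger than the median difference of the proteasome genes, so recovery at that size was not tested. Fold changes on this scale understate low genes. With 3 libraries per genotype, exact permutation reaches p = 0.1 at the lowest. Same-lettered libraries did not deviate together (correlations -0.03, 0.03 and 0.03), so the letters were treated as names. The proteasome genes, lists and tests were chosen with earlier results of these data known. Values are given for called genes and, in each subcomplex, the most abundant and the largest and smallest differences. Pathway genes are named where called, otherwise the 2 with the smallest p per list. A few others, such as Psmb6, Psmb7, Psmd14 and Psmg1, were added for their roles. Near-identical transcripts came from blastn 2.17.0, whose length minimum of 250 bases was set after matches to repeats were seen.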

Additional observations from a re-analysis of the deposited data

How the results depend on the processing

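Results were recomputed under 16 alternatives, 10 settings and each of 6 libraries left out. Without any one library 3 to 4 proteasome genes were called, all higher, and the median log2 difference was 0.0854 to 0.114. Calls over all genes were 611 to 870 in place of 1012, with 614 without WT library A, 611 without WT library B, 670 without Fyco1-/- library B and 641 without Fyco1-/- library C, where fewer libraries entered. Pathway calls were 1 to 4 in place of 3, with 1 without WT library A. Median-of-ratios scaling gave 11 proteasome calls, a median of 0.151 and 10 pathway calls (7 higher), and quantile normalization gave 5 pathway calls. Over all genes, 1110 were called with median-of-ratios scaling and 1097 with quantile normalization. Without a filter on low values 568 genes were called, with 22298 genes tested. The cause of the changes with scaling was not tested. In the other settings 3 to 6 proteasome genes were called, the 6 with crystallins left out before scaling, and none was called lower in any setting. With the replicate block, 3 proteasome genes, 929 genes in all and 3 pathway genes were called, and Psmb1 was the proteasome call lost (limma adjusted p = 0.0754). Since the letters are no stated pairing, the block says nothing on pairs of animals. The median of the 45 proteasome genes stayed above that of all genes in every setting. FPKM without counts leaves the precision of low genes such as Psmb8, Psmb9 and Psmg3 unknown.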
